A study of Drosophila melanogaster with 11 samples.

Results

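Contacts between DNA sites 10 to 100 kb apart were followed across the genome in 12–16 hr *Drosophila* embryos, in the separation range that spans whole domains rather than single genes. They were counted in 4 distance bins, of 10 to 17.8 kb, 17.8 to 31.6 kb, 31.6 to 56.2 kb and 56.2 to 100 kb, out of 37 bins in which the contacts were tallied. The bins were taken by their limits alone, and each is the sum of 4 read orientations, so that 16 of 148 counts per library were used. In all embryos the *nhomie* boundary upstream of *even skipped* (*eve*) had been exchanged by recombination at attP sites that had been placed on either side of its region. The insert was *nhomie* in the opposite orientation (*nhomie reverse*), phage *λ DNA*, the *homie* boundary in the forward orientation (*homie forward*) or *nhomie* in its own orientation (*nhomie forward*, the control that restores the region). MicroC was done on whole embryos in 3 libraries of each of *nhomie reverse*, *λ DNA* and *homie forward* and 2 of *nhomie forward*, from cages in which eggs were laid for 4 hr and then aged for 12 hr at 25 °C. The sample records give stage 14, while an age of 12 to 16 hr spans earlier stages too, and whole embryos mix all cell types.

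In flies, topologically associating domains (TADs) are loops that form when boundary elements at their ends pair with each other, and DNA within a domain is crosslinked to itself more often than to DNA outside it. In MicroC, crosslinked chromatin is cut to nucleosomes, neighbouring ends are ligated to each other, and each ligated pair is sequenced from both ends. The number of contacts falls with the separation of the ends, and the steepness of this fall, given here as the slope of a line through log10 contact density (contacts per bp of bin) against log10 separation, is a usual description of chromatin folding at a given scale. A more negative slope is a steeper decay. All values are averages over the genome, in which the exchanged segment is a very small part, and contacts of the *eve* locus itself were not analysed here. Domain borders are not part of the counts, so whether a contact lies within a domain or between domains cannot be told apart.

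To place the bins on genes around the exchange, distances between gene ends were taken from RefSeq on the unedited Release 6 assembly. A separation of 16378 bp, between *CG12134* upstream of *eve* and *TER94*, the gene downstream of *homie* that encodes an AAA ATPase, falls in the bin of 10 to 17.8 kb. The 10930 bp between *CG12133* and *eve*, which encodes a pair-rule homeodomain protein, falls in the same bin. The 18261 bp between *eIF3j*, a translation initiation factor gene, and *TER94* falls in the bin of 17.8 to 31.6 kb, as does the 30036 bp between *Pal1* and *Pka-R2*. The Hox genes *abd-A* and *Abd-B* of the bithorax complex are 97162 bp apart, in the bin of 56.2 to 100 kb. The separations of *eve* from *eIF3j* (8421 bp) and from *TER94* (8363 bp) lie below the range.

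The libraries held 87012109 to 472473246 unique contacts, and 8318854 to 82160407 of these lay at 10 to 100 kb. The shares given are of the cis contacts (both ends on the same chromosome arm) at 1 kb or more, since shorter pairs include fragments that were never ligated. Their 95% Wilson interval was at most 0.0157 percentage points on either side, which covers counting error only. Replicates 2 and 3 of each genotype with 3 libraries were nearly the same in the range. Over the 16 counts, a chi-square test of the pair gave a statistic of 0.752 per degree of freedom (p = 0.733) for *nhomie reverse*, 1.88 (p = 0.0202) for *λ DNA* and 1.68 (p = 0.0480) for *homie forward*. Replicates 1 and 2 gave 332, 211 and 304 in these genotypes. At most 0.0698% of the contacts in the range would have to change bin or orientation to make replicates 2 and 3 equal, against 0.940 to 1.29% for replicates 1 and 2. With orientations summed to 4 counts, the chi-square p was 0.208 for *nhomie reverse*, 0.104 for *λ DNA* and 0.0037 for *homie forward*. The pair thus did not differ beyond sampling noise in *nhomie reverse*, did so in *homie forward*, and did so in *λ DNA* only with orientations kept apart. Replicates 2 and 3 were averaged and counted as 1 sample, which left 8 samples, 2 in each genotype. Both *nhomie forward* libraries also did not differ beyond sampling noise among the counts of the range (statistic 1.11 per degree of freedom, chi-square p = 0.339), although the fraction of their contacts that lay in the range differed beyond it (chi-square p = 0.00116). They were kept as 2 samples, so that the spread of *nhomie forward* may be technical.

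In *nhomie reverse*, contacts at 10 to 100 kb made up 23.4% of the cis contacts at 1 kb or more in replicate 1, 27.8% in replicate 2 and 27.7% in replicate 3. In *λ DNA* they made up 28.4%, 27.6% and 27.6%, and in *homie forward* 27.1%, 27.7% and 27.7%. In *nhomie forward* they made up 29.4% in each of the 2 libraries. All 9 libraries of the other replacements lay below both *nhomie forward* libraries, and the lowest of the 11 was replicate 1 of *nhomie reverse*. This order depended on the denominator. Of the cis contacts at 10 kb or more, the range made up 46.4% in each *nhomie forward* library. It made up 47.7% and 47.6% in replicates 2 and 3 of *homie forward*, and at most 45.3% in the remaining libraries. The means were 25.6 ± 3.11% in *nhomie reverse*, 28.0 ± 0.582% in *λ DNA*, 27.4 ± 0.410% in *homie forward* and 29.4 ± 0.00972% in *nhomie forward* (SD, n = 2 samples each). The 4 genotypes did not differ beyond the spread between samples by an exact permutation test (F ratio, two-sided, p = 0.152, adjusted over 9 measures 0.416). Between pairs of genotypes no test was made, since 2 samples against 2 cannot give an exact p below 0.333, and 3 libraries against 2 cannot go below 0.1.

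The differences from *nhomie forward* were -3.87 percentage points for *nhomie reverse*, -1.43 for *λ DNA* and -2.04 for *homie forward*. Without replicate 1 of these genotypes they were -1.67, -1.84 and -1.75 points. The size for *nhomie reverse* thus rested on 1 library, while the direction was the same with and without it in all 3 genotypes. Replicate 1 of *nhomie reverse* also had the highest ratio of trans contacts (ends on different arms) to cis contacts of at least 1 kb, 0.561, while replicates 2 and 3 both had 0.237. In *λ DNA* this ratio was 0.264 in replicate 1 and 0.215 in replicates 2 and 3, in *homie forward* 0.296 and at most 0.163, and in *nhomie forward* 0.146 and 0.148. The ratio was thus lowest in *nhomie forward*, whose share was the highest, and its part in the differences of share was not tested. After the density of trans contacts was subtracted from the cis counts, *nhomie reverse* differed from *nhomie forward* by -2.33 points and *λ DNA* by -0.800 points, each a change of over 1.5 times, and *homie forward* by -1.51 points. The density was subtracted both from the range and from the total of cis contacts at 1 kb or more. Even in the last bin of the range it removed at most 0.871% of the counts, so these changes come mainly from the lowered total. For this density, unlike the ratio, only contacts between different chromosomes among 2, 3 and X were counted, not those between arms of the same chromosome.

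Within the range, contacts thinned out from bin to bin in every library. In the merged data, a pixel of 200 bp by 200 bp held 0.729 contacts at 10 to 17.8 kb, 0.378 at 17.8 to 31.6 kb, 0.194 at 31.6 to 56.2 kb and 0.0963 at 56.2 to 100 kb in *nhomie reverse*. The same bins held 0.644, 0.331, 0.168 and 0.0826 contacts per pixel in *λ DNA* and 0.388, 0.197, 0.0993 and 0.0484 in *homie forward*. In *nhomie forward* they held 1.47, 0.775, 0.404 and 0.202. The order of these levels is that of depth, whereas the fall between the first and the last bin is a ratio within a genotype. It was 7.57-fold in *nhomie reverse*, 7.80-fold in *λ DNA*, 8.01-fold in *homie forward* and 7.24-fold in *nhomie forward*, sums over libraries that have no replicate error. The contacts of the first bin were 27.9 to 29.6% of those in the range over all libraries, and those of the last bin 20.3 to 21.9%. Even at the scale of *abd-A* and *Abd-B*, where single libraries held 0.0117 to 0.118 contacts per pixel, contacts at the density of trans pairs were a small part of the counts, between 0.171 and 0.871% in the last bin and between 0.0235 and 0.122% in the first.

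Contacts at 10 to 17.8 kb, taken as shares of the same total, were 0.838, 1.02 and 1.02% per kb of separation in replicates 1, 2 and 3 of *nhomie reverse*. They were 1.03% per kb in all 3 *λ DNA* libraries and 0.992, 1.05 and 1.05% per kb in *homie forward*. In *nhomie forward* they were 1.05% per kb in each library. In this bin replicates 2 and 3 of *homie forward* came closer to *nhomie forward* than any other library of the 3 replacements. At 56.2 to 100 kb the shares were 0.117, 0.133 and 0.133% per kb in *nhomie reverse*, 0.138, 0.130 and 0.130% per kb in *λ DNA* and 0.131, 0.128 and 0.128% per kb in *homie forward*. In *nhomie forward* they were 0.145% per kb in each library. In that bin replicates 2 and 3 of *homie forward* were lower than all libraries but replicate 1 of *nhomie reverse*. Between these bins, the shares over all 11 libraries were 0.439 to 0.558% per kb at 17.8 to 31.6 kb and 0.229 to 0.290% per kb at 31.6 to 56.2 kb. In each of the 4 bins, all 9 libraries of the other replacements lay below both *nhomie forward* libraries, as the plot of contact density shows.

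**Figure D1:**
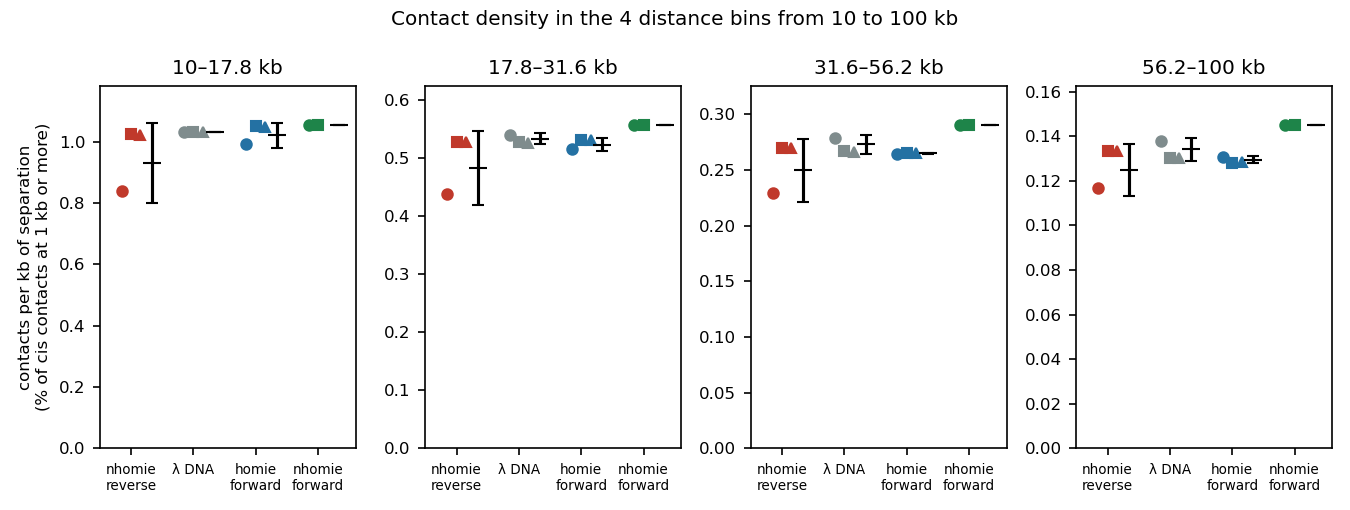
Contacts per kb of separation, as a percent of the cis contacts at 1 kb or more, in the 4 distance bins, on axes that start at 0. Circles are replicate 1, squares replicate 2 and triangles replicate 3, and black bars are the mean ± SD of 2 samples, with replicates 2 and 3 averaged. Replicate 1 of *nhomie reverse* is the lowest point in all 4 bins and both *nhomie forward* libraries are the highest.

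Of the 4 bins, 0 were called over the 4 genotypes after adjustment over the 18 distance bins tested, and of all 18 bins 0% were called (exact permutation test of log10 share per bp, 8 samples). The smallest p that this exact permutation test can give with 8 samples is 0.00952. A single differing bin thus could not have been called after adjustment. The exact p of the 4 bins was 0.210, 0.190, 0.114 and 0.124 in order of separation (adjusted 0.354 for each), and at an unadjusted p of at most 0.05 the test called 0 of the 4 bins and 1 of the 18. With all 11 libraries as separate samples, 0 of the 4 bins were called, against 0% of all bins, and 1 of the 4 and 6 of the 18 were called at an unadjusted p of at most 0.05. That *nhomie forward* was highest in every bin is therefore a description of these libraries with this denominator.

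Relative to *nhomie forward*, the deficit of the other replacements was larger at longer separations in 8 of 9 libraries. Replicate 2 of *nhomie reverse* had 0.970 times the mean share of *nhomie forward* at 10 to 17.8 kb, 0.949 times at 17.8 to 31.6 kb, 0.928 times at 31.6 to 56.2 kb and 0.918 times at 56.2 to 100 kb. Replicate 2 of *λ DNA* had 0.977, 0.946, 0.918 and 0.899 times that mean, and replicate 2 of *homie forward* had 0.997, 0.953, 0.913 and 0.884 times. The ratios of replicates 2 and 3 differed by at most 0.00197 in any of these. In replicates 2 and 3, *homie forward* was thus nearest to *nhomie forward* in the first bin and farthest from it in the last. In replicate 1, where *λ DNA* was nearest in all 4 bins, the ratios ran from the first bin to the last over 0.977, 0.970, 0.961 and 0.950 in *λ DNA* and over 0.941, 0.925, 0.912 and 0.901 in *homie forward*. Replicate 1 of *nhomie reverse* was the exception, with 0.795, 0.787, 0.790 and 0.804, a deficit of about the same size in all 4 bins.

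**Figure D2:**
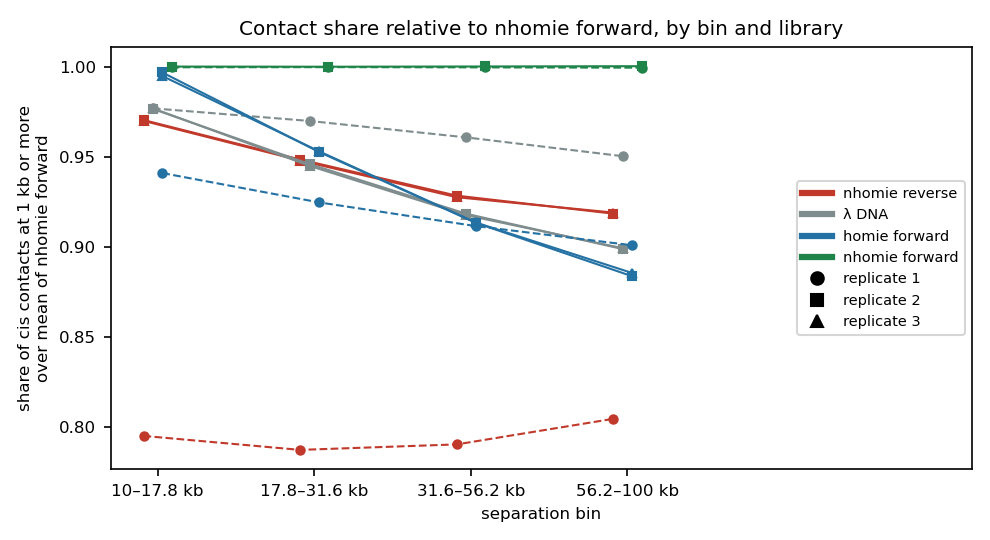
Share of each distance bin among cis contacts at 1 kb or more, divided by the mean of the *nhomie forward* libraries, for each of 11 libraries (dashed lines are replicate 1, points are shifted sideways by genotype for visibility). Replicates 2 and 3 of *nhomie reverse*, *λ DNA* and *homie forward* decline from left to right, *homie forward* from 0.997 to 0.884 in replicate 2, while replicate 1 of *nhomie reverse* stays between 0.787 and 0.804.

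The same pattern is given by the slope over the 4 bins. It was -1.14, -1.18 and -1.18 in replicates 1, 2 and 3 of *nhomie reverse*, -1.16, -1.20 and -1.20 in *λ DNA* and -1.17, -1.22 and -1.22 in *homie forward*. In *nhomie forward* it was -1.15 in each library. Decay was steeper than in *nhomie forward* in 8 of the 9 other libraries, and in each of the 3 other genotypes replicate 1 was the least steep. The means were -1.16 ± 0.0276 in *nhomie reverse*, -1.18 ± 0.0229 in *λ DNA*, -1.19 ± 0.0311 in *homie forward* and -1.15 ± 0.000192 in *nhomie forward* (SD, n = 2 samples each). With the 8 samples, no difference between genotypes beyond the spread between samples was detected (exact permutation p = 0.324, adjusted 0.416). The differences from *nhomie forward* were -0.013 for *nhomie reverse*, -0.032 for *λ DNA* and -0.047 for *homie forward*, and without replicate 1 of these genotypes -0.032, -0.048 and -0.069, so that replicate 1 changed the sizes, by over 1.5 times in *nhomie reverse* and *λ DNA*, and no direction.

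Decay was not the same throughout the range but steepened with separation in all genotypes. The slope from 5.6 to 17.8 kb, between the last bin below the range and the first bin in it, was -1.11 ± 0.0304. The slopes between neighbouring bins within the range were -1.14 ± 0.0274 around 17.8 kb, -1.16 ± 0.0281 around 31.6 kb and -1.22 ± 0.0260 around 56.2 kb (SD, n = 8 samples). The slope around 100 kb, between the last bin in the range and the first beyond it, was -1.34 ± 0.0337. Each of these steps was steeper than the one before it. The change was -0.021 ± 0.0130 at the entry to the range, in 7 of 8 samples and 10 of 11 libraries, with replicate 1 of *nhomie reverse* at 0.0042 (exact sign-flip test, p = 0.0156, adjusted over 6 tests 0.0188). It was -0.023 ± 0.00839 between the first steps within the range, -0.061 ± 0.0105 between the last and -0.117 ± 0.0159 at the exit, each in 8 of 8 samples and 11 of 11 libraries. For each of these 3 changes the exact sign-flip p was 0.00781, the smallest that 8 samples can give (adjusted 0.0117).

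The steepening thus grew from 10 kb towards 100 kb, and no flattening occurred within the range in any library except between the step into it and the first step in replicate 1 of *nhomie reverse*. The steepest step below 1 Mb lay just outside the range in all 11 libraries, between the bins of 100 to 178 kb and 178 to 316 kb, with slopes of -1.47 to -1.32. Beyond it the decay flattened, as the plot of slopes between neighbouring bins shows.

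**Figure D3:**
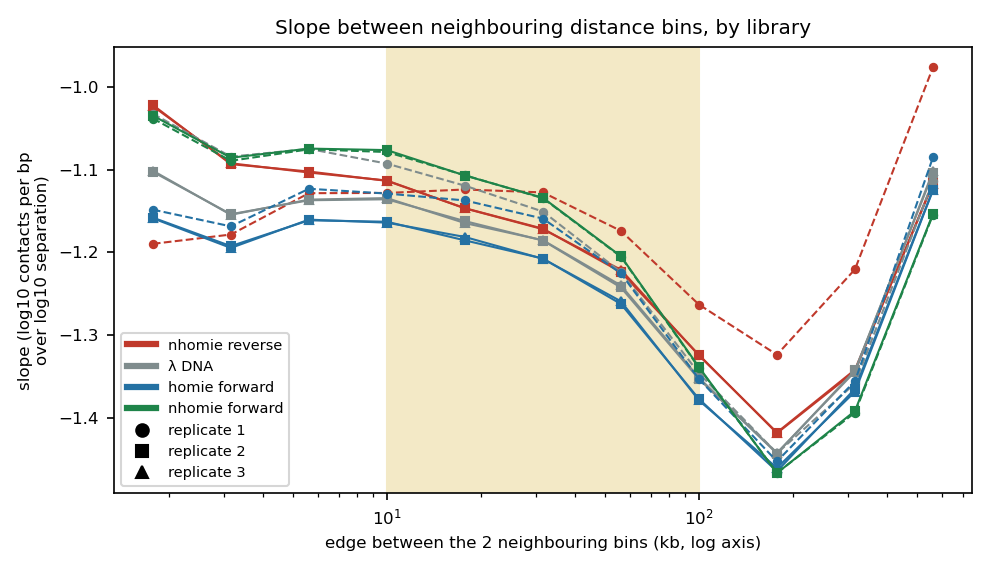
Slope (log10 contacts per bp over log10 separation) between neighbouring distance bins, against the edge that the bins share (kb, log axis), for each of 11 libraries, with the range of 10 to 100 kb shaded (dashed lines are replicate 1). All libraries steepen across the shaded range to a steepest step of -1.47 to -1.32 beyond it, and replicate 1 of *nhomie reverse* is the least steep at the right edge of the range and beyond.

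Single genotypes followed this course at different levels. In *nhomie reverse* the 3 slopes within the range were -1.12, -1.13 and -1.17 in replicate 1 and -1.15, -1.17 and -1.22 in replicate 2. In *λ DNA* they were -1.12, -1.15 and -1.22 in replicate 1 and -1.16, -1.19 and -1.24 in replicate 2. In *homie forward* they were -1.14, -1.16 and -1.23 in replicate 1 and -1.19, -1.21 and -1.26 in replicate 2. In *nhomie forward* they were -1.11, -1.13 and -1.21 in replicate 1 and -1.11, -1.13 and -1.20 in replicate 2. The *homie forward* libraries were the steepest of their replicate number at each of these steps, and *nhomie forward* was less steep than all 9 other libraries at the first step and than 8 of them at the other steps. With the 8 samples, no difference between genotypes beyond the spread between samples was detected at any of the 3 steps (exact permutation p = 0.295, 0.390 and 0.324, adjusted 0.416, 0.439 and 0.416).

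At the exit from the range, the slope around 100 kb was -1.26, -1.32 and -1.32 in *nhomie reverse*, -1.35, -1.35 and -1.35 in *λ DNA* and -1.35, -1.38 and -1.38 in *homie forward*. In *nhomie forward* it was -1.34 in each library, so that all *nhomie reverse* libraries were less steep and all 6 *λ DNA* and *homie forward* libraries steeper. At the last step within the range, around 56.2 kb, *nhomie reverse* had been less steep than *nhomie forward* by 0.0068 in the means, which became -0.017 without replicate 1 of *nhomie reverse*. At the exit the means were -1.29 ± 0.0434 in *nhomie reverse*, -1.35 ± 0.00439 in *λ DNA*, -1.37 ± 0.0177 in *homie forward* and -1.34 ± 0.000520 in *nhomie forward* (SD, n = 2 samples each). This was the measure with the lowest p over the genotypes, an exact permutation p of 0.00952, the smallest that 8 samples can give, which did not pass after adjustment over 9 measures (0.0857). Even at this smallest p a single measure cannot pass that adjustment, so the adjusted value cannot decide whether the genotypes differed here. With all 11 libraries as separate samples the slope at the exit passed (exact permutation p = 0.00461, adjusted 0.0415), but that count treats replicates 2 and 3 as independent. Both counts also take the *nhomie forward* libraries as 2 samples. To make these equal, 0.0268% of their contacts in the range would have to change bin or orientation, against 0.0373 to 0.0698% for replicates 2 and 3 of the others. The exact permutation p was higher with them as 1 sample, which leaves no spread in that genotype.

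The total steepening within the range, the slope around 56.2 kb minus that around 17.8 kb, was -0.050, -0.077 and -0.074 in *nhomie reverse*, -0.105, -0.080 and -0.076 in *λ DNA* and -0.088, -0.077 and -0.078 in *homie forward*. In *nhomie forward* it was -0.099 and -0.098. It was negative in all libraries and strongest in replicate 1 of *λ DNA*. The means were -0.063 ± 0.0182 in *nhomie reverse*, -0.091 ± 0.0189 in *λ DNA*, -0.083 ± 0.00771 in *homie forward* and -0.098 ± 0.000617 in *nhomie forward* (SD, n = 2 samples each), which did not differ beyond the spread between samples (exact permutation p = 0.210, adjusted 0.416).

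Compared with the neighbouring decades of separation, decay at 10 to 100 kb was intermediate. Its slope minus that from 1 to 10 kb was -0.058 ± 0.0434 over 8 samples, negative in 7 of 8 samples and 10 of 11 libraries (exact sign-flip p = 0.0234, adjusted 0.0234). The exception was replicate 1 of *nhomie reverse*, at 0.026, whose contacts from 1 to 10 kb decayed with a slope of -1.17. Inward-facing pairs under 1 kb made up 55.4% of the unique contacts in that library, 45.1% in replicate 1 of *λ DNA*, 50.9% in replicate 1 of *homie forward* and at most 34.5% in the others, and their part in the shorter contacts was not tested. The slope at 10 to 100 kb minus that from 100 kb to 1 Mb was 0.130 ± 0.0519, positive in 8 of 8 samples and 11 of 11 libraries (exact sign-flip p = 0.00781, adjusted 0.0117). This second difference was largest in *nhomie forward*, at 0.196 and 0.197, above the 9 other libraries, which lay between 0.038 and 0.147.

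The 4 read orientations were nearly balanced in the range. Inward pairs, whose reads point towards each other, were the most frequent and outward pairs, whose reads point away from each other, the least frequent in 11 of 11 libraries, and the imbalance (the most minus the least frequent, as a percent of the mean of the 4) was 0.829 to 1.13%. The excess of inward over outward pairs shrank with separation. It was 1.42 to 2.10% at 10 to 17.8 kb, 0.813 to 1.36% at 17.8 to 31.6 kb, 0.321 to 0.798% at 31.6 to 56.2 kb and -0.069 to 0.790% at 56.2 to 100 kb. Inward pairs were the most frequent in all 11 libraries in the first 3 bins and in 6 of 11 in the last, where replicate 2 of *homie forward* had more outward than inward pairs. The imbalance averaged 0.967 ± 0.0422% in *nhomie reverse*, 1.03 ± 0.15% in *λ DNA*, 0.982 ± 0.0614% in *homie forward* and 1.01 ± 0.0491% in *nhomie forward* (SD, n = 2 samples each), and the genotypes did not differ beyond the spread between samples (exact permutation p = 0.924, adjusted 0.924). Replicate 1, which stood apart in share and slope, differed in this measure from the mean of replicates 2 and 3 by -0.060 percentage points in *nhomie reverse*, 0.213 in *λ DNA* and 0.087 in *homie forward*. Replicates 2 and 3 differed from each other by 0.051, 0.181 and 0.036 points in the same order.

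**Figure D4:**
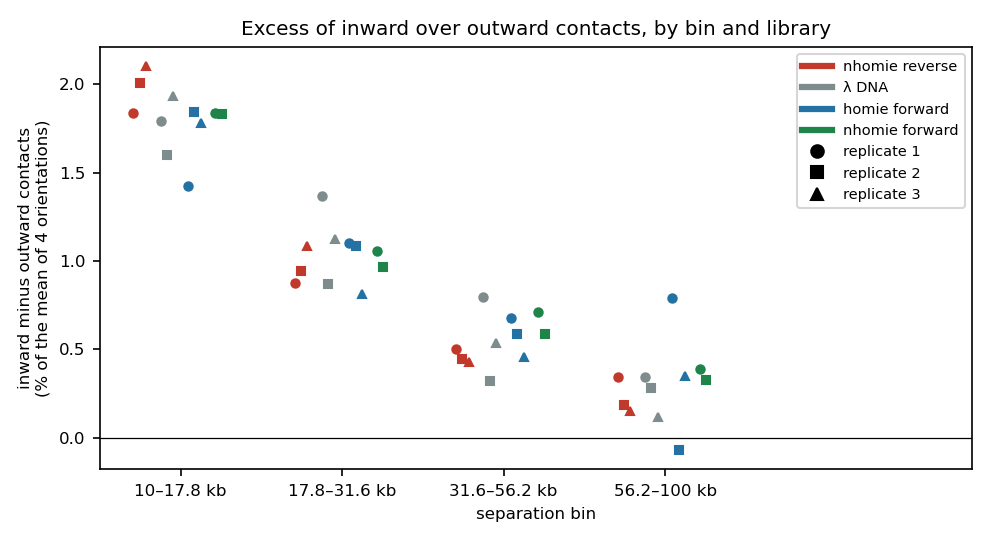
Inward minus outward contacts as a percent of the mean of the 4 read orientations, in each distance bin and each of 11 libraries, with a line at 0. The excess falls from 1.42 to 2.10% in the first bin to between -0.069 and 0.790% in the last, and the *nhomie forward* points lie within the range of the other libraries in every bin.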

How the data were processed

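MicroC pairs of whole embryos were aligned by the authors, using BWA-MEM, to a genome of each genotype made by editing Release 6 (dm6), then parsed, de-duplicated and filtered with Pairtools, and half-mapped pairs and pairs of low mapping quality were removed. Tool versions are not given in the sources used here. The authors deposited 1 Pairtools summary of 222 statistics per replicate, made before replicates were merged. Used from it were the totals, the raw counts of pairs by separation and read orientation, the counts by pair of chromosome arms and the chromosome lengths. The fractions were not used. Removal of pairs of low mapping quality leaves out of the counts those repeats in which reads cannot be placed, and counts were not balanced.

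From these counts, shares, densities and slopes were computed in Python 3.11.15 (numpy 2.4.6, scipy 1.17.1, with matplotlib 3.10.9 for the plots). In every library the counts by separation were checked to add up to the cis contacts. Slopes were fitted by least squares on log10 values at the geometric centre of each bin. Bins with fewer than 1000 contacts in a library were left out, which left 18 of the bins at 1 kb or more for the test bin by bin. Genotypes were compared with the exact permutation F test over all 2520 assignments of the 8 samples, and changes within samples with the exact sign-flip test over 256 flips, both two-sided, with Benjamini-Hochberg adjustment over 9 measures, 6 tests or 18 bins. The authors call the replicates independent, but it is not said which cages they came from, so that p-values measure the spread between these samples. Scripts were tested on simulated data. Alternatives were each library left out, 11 or 7 samples, the replicate block, other denominators and scales, same-strand pairs, pairs of positions in place of bp, and subtraction of the trans density. The bins, measures and tests were chosen with earlier results of these data known.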

Additional observations from a re-analysis of the deposited data

Results flagged for a closer look

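In 2 flagged measures, replicate 1 differed from the mean of replicates 2 and 3 in opposite directions in different genotypes. In the slope over the range, replicate 1 was less steep in all 3, by 0.039 in *nhomie reverse*, 0.032 in *λ DNA* and 0.044 in *homie forward*. In the first measure, the share of contacts at 10 to 100 kb (of cis contacts no closer than 1 kb), the difference was -4.39 percentage points in *nhomie reverse*, 0.823 points in *λ DNA* and -0.579 points in *homie forward*. In the second, the total steepening within the range, the slope around 56.2 kb minus that around 17.8 kb, it was 0.026 in *nhomie reverse*, -0.027 in *λ DNA* and -0.011 in *homie forward*. These 2 measures were flagged because the sign differed between genotypes, and these differences between genotypes were not tested. The sign also differed in the imbalance of the read orientations, at -0.060 points in *nhomie reverse*, 0.213 in *λ DNA* and 0.087 in *homie forward*. In that measure replicates 2 and 3 differed by 0.051, 0.181 and 0.036 points.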

How the results depend on the processing

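No call changed direction. The differences of share from *nhomie forward* were not recomputed with other denominators. With cis contacts at 10 kb or more as the total, replicates 2 and 3 of *homie forward* lay above *nhomie forward*. The 6 within-sample tests of slope kept their call in all 96 alternative values, and the count of called bins from 10 to 100 kb stayed at 0 in each of its 22. Where 8 or 7 samples were used, a single differing bin could not have been called after adjustment. Subtraction of the trans density, from the range and from the total, moved all 3 differences of share from *nhomie forward*, to -2.33 points for *nhomie reverse* (within the SD of its samples), -0.800 points for *λ DNA* and -1.51 points for *homie forward*. With orientations summed, the chi-square test of *λ DNA* replicates 2 and 3 lost its call (2.05 per degree of freedom, p = 0.104). The cause was not tested. Leaving out each library in turn changed no call of the 253 values recomputed. Whether the replicate numbers pair the samples was not settled. Over 48 classes of separation and orientation from 1 kb to 1 Mb, deviations from the genotype means were correlated between libraries of different genotypes. With the same number they correlated at -0.896 to 0.915, over 0.1 in 9 of 15 pairs. With different numbers they correlated at -0.918 to 0.920, over 0.1 in 15 of 30 pairs. Of 11 libraries, 6 matched best a library of their own number. Replicates 2 and 3 were nearly the same, so these correlations cannot decide whether libraries with the same number belong together. With the replicate number as a block and 8 samples, no call changed (slope over the range, exact permutation p = 0.125, adjusted 0.313). The smallest p that this block permutation test can give is 0.0417. A single measure thus could not pass the adjustment over 9 measures, and the unchanged calls decide nothing. With the block and 11 libraries, the adjusted exact permutation p over genotypes was 0.0352 for the slope over the range and likewise for the steps around 17.8, 31.6 and 100 kb, and 0 of the 4 bins were called. Counting the *nhomie forward* libraries as 1 sample, an alternative added after the data had been seen, changed no call. Counting error was at most 0.0157 points for a share of the range. The *nhomie forward* libraries were also the deepest, with 340576138 and 472473246 unique contacts, against at most 212757413 in the other libraries. Depth thus cannot be told apart from this genotype, and its part in the differences was not tested.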
